A study of Mus musculus with 12 samples.

Results

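This account covers the change in whole-cell (total) RNA of mouse embryonic stem cells (ESC) between the column labelled doxycycline (dox) and the column without it. A gene was included where its mean was at least 1 RPKM (reads per kilobase of exon, scaled to the library's reads) in at least 1 of the 2 total columns, which held for 9854 of the 19716 genes in the authors' deposited table. The ESC carried a doxycycline-inducible HA-Flag-AGO2 transgene and were grown on gelatin with serum and leukemia inhibitory factor (LIF). The dox group received 2.5 ug/ml dox for 15 h before harvest, and the other group carried the same transgene without dox. Total RNA was extracted from whole cells and sequenced after depletion of ribosomal RNA, and a second pair of groups held RNA of isolated nuclei. The labels list 3 libraries per group. The deposited p-values fit means of 2 total libraries with dox and 3 without. Their depths, inferred from the steps of low values, were about 11 and 11.8 M reads with dox and 15.3, 15.9 and 16.9 M without. Levels are the group means of the authors' deposited table, taken back from the log2 scale, so values of single libraries are not shown. No label says that libraries came from separate cultures, so p-values measure the spread between libraries. For each gene that spread is 1 residual standard deviation pooled over the total and nuclear groups, not the spread of the total libraries alone. The line is an engineered one, the labels do not say whether it is a single clone, and no group of cells without the transgene and with dox was used here.

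Argonaute 2 binds small RNAs and directs them to complementary mRNAs, whose translation and stability it lowers. ESC in serum and LIF renew through LIF receptor signalling to STAT3, are prompted towards differentiation by their own FGF4, and are known for active glycolysis and for an open, actively remodelled chromatin. Messages of cytosolic, nuclear and most mitochondrial proteins are translated on free ribosomes, and those of surface and secreted proteins at the endoplasmic reticulum (ER).

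The label was checked first on Ago2, the gene of the induced protein. It stood at 3.43 RPKM in the dox-labelled column, against 9.12 RPKM in the no-dox column, a log2 difference of -1.41 ± 0.17 (limma, with ± SE here and below, Benjamini-Hochberg adjusted p = 7.9e-06). The change runs against the label. The exons of Ago2 total 14031 bases. In the longest of 10 equal bins of members by exon length, 55.5% were called lower and 13.9% higher. Whether the 2 columns were exchanged was not tested, and in that case every higher and lower given here would change places. The species and the untranslated parts of the transgene are not given in the sources used here, so whether its reads would fall in this row is not known. The columns are therefore called dox-labelled and no-dox by their headers. The tissue label held: all 10 ESC markers were above 1 RPKM, with summed levels of 4238 RPKM in the dox-labelled and 1835 RPKM in the no-dox column. Dppa5a alone gave 3387 and 1394 RPKM of these sums, and of the 10 markers 7 were called higher and 2 lower. Of the markers found in the table, 6 of 10 for fibroblast feeder cells, 7 of 7 for mesoderm and 5 of 7 for endoderm, 0 reached 1 RPKM, and their summed levels were 2.07 and 1.69, 0.345 and 0.640, and 0.507 and 0.237 RPKM in the dox-labelled and no-dox columns, pair by pair. The mesoderm marker T was at 0 in both columns, the feeder marker Dcn at 0 in the dox-labelled column. Of the markers of other fates, Nes, Tubb3, Tfap2c and Zscan4f were members. In such bulk RNA, fewer cells of a kind and less RNA per cell cannot be told apart.

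Total RNA differed between the columns in most genes. By limma on the deposited means with an adjusted p below 0.05, 4203 members (42.7%) were higher and 2237 (22.7%) lower in the dox-labelled column. Over all 10200 genes tested the shares were 41.5% and 22.8%. Of all members, 2267 (23.0%) were called higher and 1224 (12.4%) called lower by at least 2-fold. Folds of 4 to 8 were found in 139 higher and 259 lower genes, and of 8 or more in 6 higher and 51 lower genes. The median log2 difference of all members was 0.28 (quartiles -0.44 and 0.95), with a median SE of 0.18. Against that median, a gene without an absolute change in RPKM lies below the middle of the distribution. Setting the column medians equal lowered every difference by 0.26, and the higher share of the calls was then 51.7% in place of 65.3%. It was 54.7% after quantile normalization and 53.1% after removal of the trend with exon length. Of the members, 8430 passed 1 RPKM in both total columns (3953 higher, 1517 lower). Another 460 passed in the dox-labelled column alone and 964 in the no-dox column alone, and their directions follow from that choice.

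**Figure D1:**
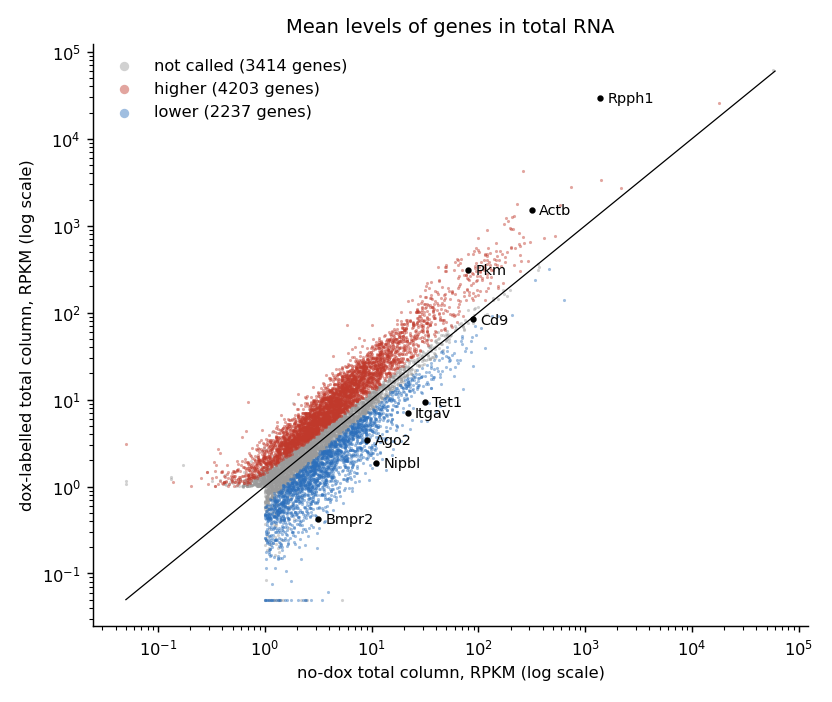
Mean level of each of the 9854 genes in the dox-labelled total column (vertical axis, RPKM, log scale) against the no-dox total column (horizontal axis, RPKM, log scale), with the line of equality. Red points are genes called higher, blue points lower, grey points not called, and values under 0.05 RPKM are drawn at 0.05. At high levels most points lie above the line, while Nipbl, Bmpr2, Tet1 and Itgav lie below it and Cd9 on it.

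The largest rises at 5 RPKM or more were RNAs of RNase P and histone mRNAs. Rpph1, the RNA subunit of RNase P that trims tRNA ends (GRCm38 chr14:50807449-50807767, minus strand), reached 29600 RPKM in the dox-labelled column, against 1385 RPKM in the no-dox column. Its related copies Rprl3 and Rprl2 differed by 4.0 ± 0.18 and 3.62 ± 0.19 on the log2 scale. The next in order were Hist2h4 (2.99 ± 0.10), Hist1h4h (2.94 ± 0.10), Hist1h1a (2.90 ± 0.12), Hist1h2al (2.87 ± 0.15), Hist1h4c (2.87 ± 0.11), Hist1h2an (2.86 ± 0.16) and Hist1h3i (2.82 ± 0.12). These RNAs are short and exist in near-identical copies, between which the authors' counting may have divided reads. The 10 largest falls in this ranking included 4 zinc-finger genes. Bod1l, which protects stalled replication forks (chr5:41787538-41844315, minus strand), stood at 1.56 RPKM in the dox-labelled column, against 13.6 RPKM in the no-dox column (log2 difference -3.13 ± 0.16). It was followed by Rex2 (-2.78 ± 0.21), Zfp981 (-2.73 ± 0.20), Rev3l, the catalytic subunit of a translesion polymerase (-2.68 ± 0.18), and Zfp970 (-2.63 ± 0.17). Mir17hg, the host transcript of the miR-17 cluster, fell by 2.60 ± 0.24, Taok1, a kinase upstream of Hippo and JNK signalling, by 2.58 ± 0.20, Nipbl, the cohesin loader, by 2.55 ± 0.16, the proliferation antigen Mki67 by 2.52 ± 0.20 and Zfp534 by 2.49 ± 0.46, all on the log2 scale. Rex2, Zfp981, Zfp970 and Zfp534 belong to a family with closely similar copies, so their reads may also have been divided.

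Kind of transcript, level, length and base composition all moved with the difference. Of 9285 protein-coding members 43.6% were higher and 21.9% lower. Of 63 long intergenic noncoding RNAs 3.17% were higher and 71.4% lower (median log2 -1.35), and of 42 antisense transcripts 7.14% and 69.0%. Processed pseudogenes (53) were 73.6% higher and 9.43% lower. Whether the counting used strand is not stated, so reads of antisense transcripts and their partners may be mixed. Binned by the larger of the 2 levels, 12.9% of genes under 2 RPKM were higher and 27.4% lower, against 90.0% and 3.19% of the 251 genes at 100 RPKM or more. Genes called higher had a median exon length of 3510 bases and those called lower of 6510 bases. Their transcripts held 52.57% and 44.42% G and C. Across 9655 genes, which share the same 5 libraries, Spearman's rho with the log2 difference was -0.36 for exon length and 0.44 for GC content, given as a description. The part of these properties in the results below was not tested beyond the 2 trend-removed fits.

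**Figure D2:**
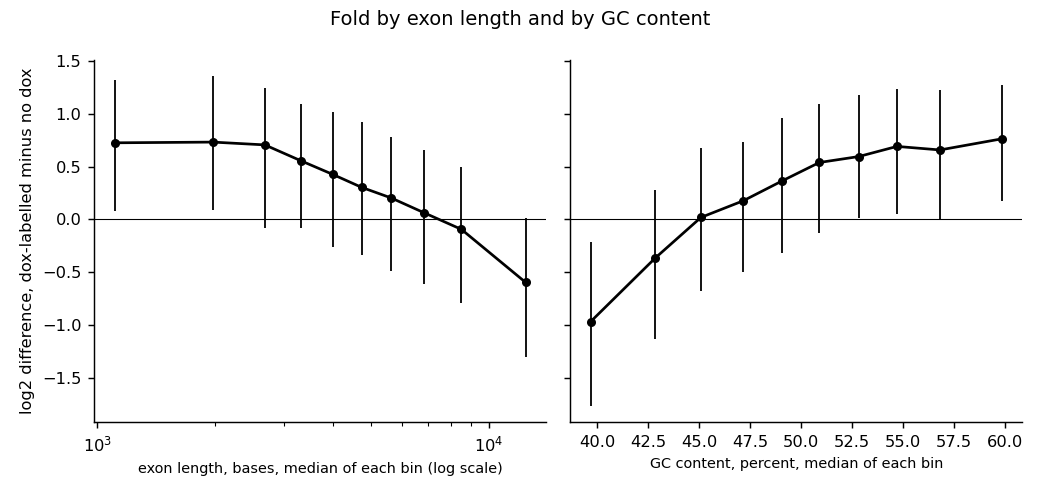
Median log2 difference, dox-labelled minus no dox (vertical axis), in 10 equal bins of the members by exon length (left, bases, log scale) and by GC content of the longest transcript (right, percent). Points are medians and bars run from the lower to the upper quartile of the genes in a bin. The median is -0.60 in the bin of the longest genes and -0.97 in the bin poorest in G and C.

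The functional lists were read against the share of all members, 42.7% higher and 22.7% lower. Of 405 members in 15 metabolic lists, 274 were higher and 46 lower (median log2 0.96). The excess of higher calls was smaller against genes of like level. At 20 RPKM or more, 84.6% of metabolic members were higher, against 77.6% of all members (median log2 1.235 and 1.199). Between 5 and 20 RPKM the shares were 66.5% and 57.0% (medians 0.954 and 0.571). Between 1 and 5 RPKM they were 35.5% and 24%, with 27.6% lower in both. Among 226 members in 10 lists of surface and secreted proteins, 13 were higher and 114 lower (median -0.41). Signalling (279 members) counted 114 higher and 76 lower (40.9% and 27.2%), close to the share of all members. Chromatin (351) counted 192 and 78, and general machinery (619) 410 and 97. The medians of the metabolic, chromatin (histones included) and machinery themes stayed above 0 and that of the surface theme below 0 under each scaling tried. The signalling median of 0.22 turned to -0.04 with column medians set equal and to -0.03 after quantile normalization.

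**Figure D3:**
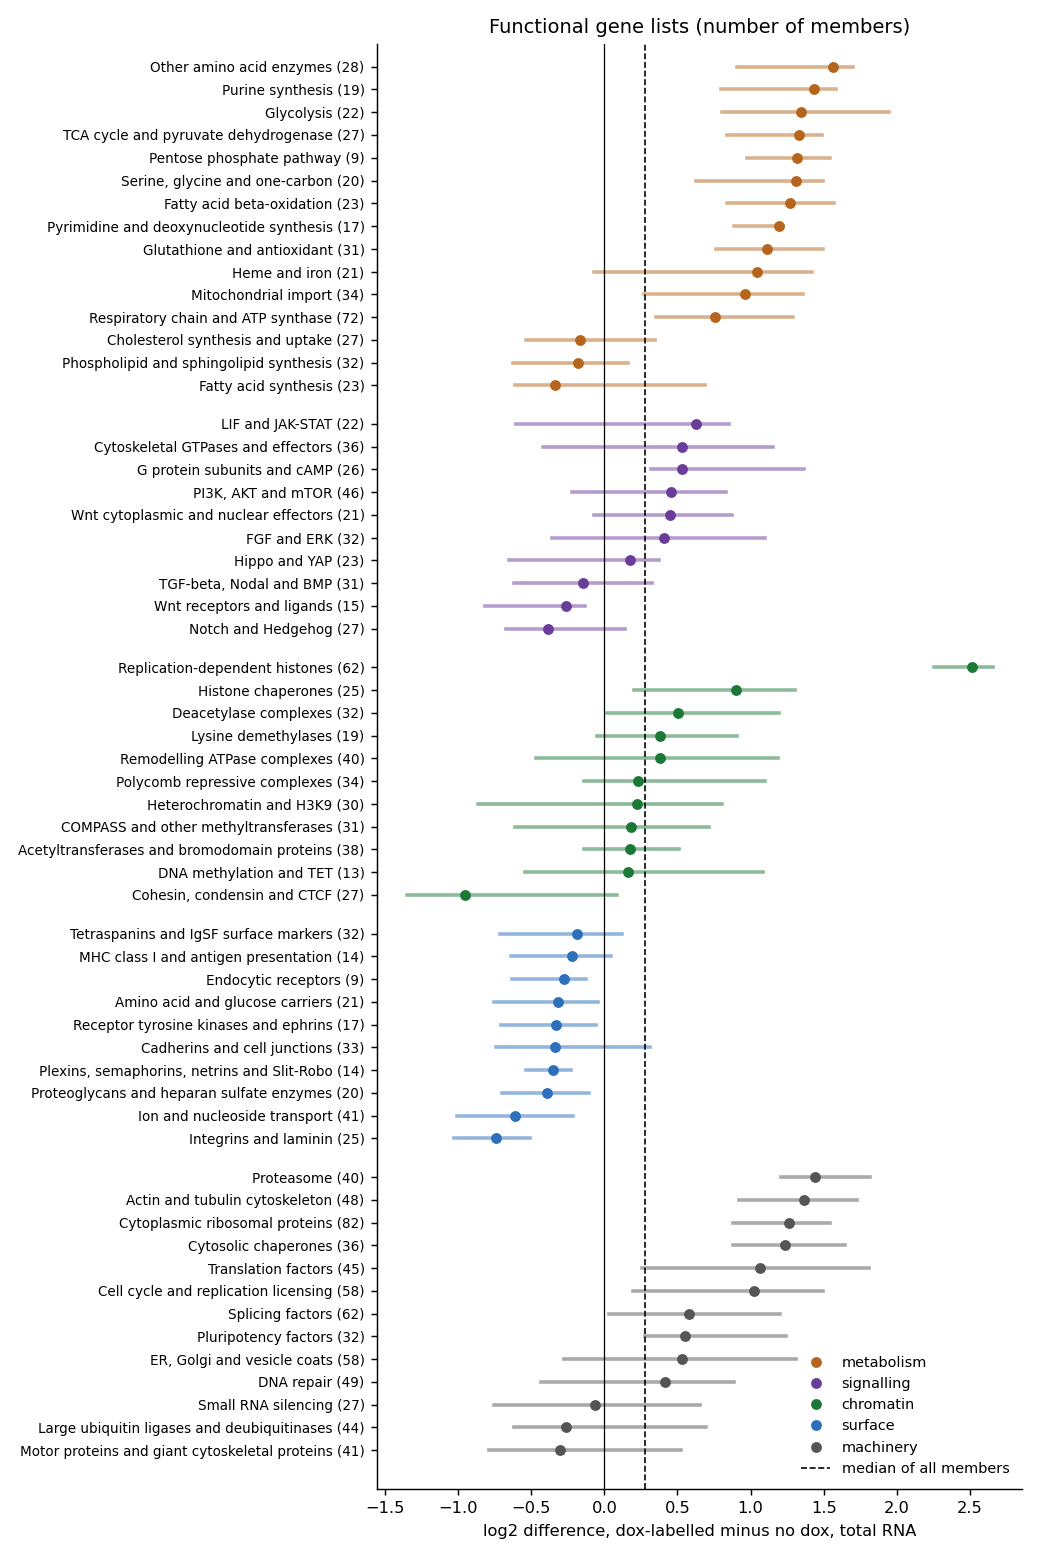
Log2 difference, dox-labelled minus no dox, in 59 functional gene lists, with the number of members in brackets. Points are list medians, bars run from the lower to the upper quartile of the members, and the dashed line is the median of all 9854 genes at 0.28. The 10 surface lists all have medians below 0, and 12 of the 15 metabolic lists lie right of the dashed line.

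Most genes of central carbon metabolism were higher in the dox-labelled column. Glycolysis counted 16 of 22 members higher and 2 lower. Its exit enzymes Pkm, the pyruvate kinase of proliferating cells, and Ldha, which turns pyruvate into lactate, rose to 312 and 125 RPKM in the dox-labelled column, against 80.6 and 33.0 RPKM in the no-dox column. Pkm differed by 1.95 ± 0.10 and Ldha by 1.92 ± 0.10 on the log2 scale (limma, adjusted p = 9.7e-09 and 1.3e-08). The largest rises of the list were in Tpi1, triose phosphate isomerase (161 RPKM in the dox-labelled column, against 35.9 RPKM in the no-dox column), Aldoa, an aldolase (log2 2.08 ± 0.10), and Pgam1, a phosphoglycerate mutase (log2 2.03 ± 0.09). The glucose carriers Slc2a3 (75 RPKM in the dox-labelled column, against 88.5 RPKM in the no-dox column) and Slc2a1 (28.3 RPKM in the dox-labelled column, against 31.2 RPKM in the no-dox column) did not pass the test, and the lactate carrier Slc16a1 fell (-0.71 ± 0.17). Of 27 members of the tricarboxylic acid cycle list 24 were higher and 0 lower by limma. Citrate synthase, Cs, stood at 75 RPKM in the dox-labelled column, against 24.4 RPKM in the no-dox column, and the succinate dehydrogenase subunit Sdhc at 39.6 RPKM in the dox-labelled column, against 10.6 RPKM in the no-dox column. The pentose phosphate list held 7 of 9 higher. G6pdx, its entry enzyme, differed by 1.79 ± 0.15 and Rpe, which interconverts pentose phosphates, fell by 1.00 ± 0.13 on the log2 scale.

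Nucleotide and amino acid enzymes were mostly higher as well. Of 19 purine genes 17 were higher and 1 lower, Hprt, the salvage enzyme of hypoxanthine and guanine (2.54 RPKM in the dox-labelled column, against 4.02 RPKM in the no-dox column). The rises were led by Pnp, which cleaves purine nucleosides (28.3 RPKM in the dox-labelled column, against 6.29 RPKM in the no-dox column), with Impdh2, the rate-limiting enzyme of guanine nucleotide synthesis (log2 1.91 ± 0.11), and Adsl (log2 1.91 ± 0.12) next to it. Of 17 pyrimidine and deoxynucleotide genes 14 were higher, among them Cad, the enzyme that opens pyrimidine synthesis (31.4 RPKM in the dox-labelled column, against 13.7 RPKM in the no-dox column), and Rrm2, a subunit of ribonucleotide reductase (29.7 RPKM in the dox-labelled column, against 12.9 RPKM in the no-dox column). Of 20 genes of serine, glycine and one-carbon metabolism 17 were higher and 0 lower by limma. Psat1 (log2 2.09 ± 0.12) and Phgdh (log2 2.03 ± 0.11), both of the serine pathway, stood out in size, and Gldc, the glycine cleavage enzyme abundant in ESC, did not pass the test at 28.2 RPKM in the dox-labelled column, against 25.1 RPKM in the no-dox column. In the list of other amino acid enzymes 24 of 28 were higher, with Bckdha of branched-chain amino acid breakdown at 2.10 ± 0.13 and the asparagine synthetase Asns at 1.91 ± 0.12. Mut, the methylmalonyl mutase, fell by 0.66 ± 0.20.

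Mitochondrial energy genes were also mostly higher. The test was not passed by 3 of 23 fatty acid oxidation, 15 of 72 respiratory chain and 8 of 34 import members. Fatty acid oxidation counted 20 of 23 higher and 0 lower by limma, led by Acads, a short-chain acyl-CoA dehydrogenase (22.5 RPKM in the dox-labelled column, against 4.90 RPKM in the no-dox column). Cpt1a, the carnitine transferase that admits fatty acids to mitochondria, did not pass the test at 5.28 RPKM in the dox-labelled column, against 4.45 RPKM in the no-dox column. Of 72 nuclear-encoded genes of the respiratory chain and ATP synthase 55 were higher and 2 lower (median log2 0.76, close to 0 at 0.03 after quantile normalization). Uqcrc1 of complex III (log2 2.06 ± 0.11) and Ndufs7 of complex I (log2 2.02 ± 0.14) stood at the top, and Cox7b of complex IV and Uqcrb of complex III fell (-0.96 ± 0.23 and -0.38 ± 0.15). Mitochondrial import held 24 of 34 higher, with Samm50 of the outer-membrane assembly complex at 1.75 ± 0.14 and Timm21 of the inner membrane at -1.6 ± 0.22. In the glutathione and antioxidant list 25 of 31 were higher and 0 lower by limma. Gstp1, a glutathione transferase (117 RPKM in the dox-labelled column, against 29.5 RPKM in the no-dox column), and Prdx2, a cytosolic peroxiredoxin (44.1 RPKM in the dox-labelled column, against 13.2 RPKM in the no-dox column), rose, and Prdx4, the peroxiredoxin of the ER, stood at 13.4 RPKM in each column (adjusted p = 0.99). In the heme and iron list 13 of 21 were higher and 5 lower. The heme enzymes Urod (1.98 ± 0.16), Alas1 (1.42 ± 0.21) and Alad (1.53 ± 0.16) and the iron store Fth1 (1.16 ± 0.10) rose, and the surface transferrin receptor Tfrc fell (15.0 RPKM in the dox-labelled column, against 44.9 RPKM in the no-dox column), as did the metal carrier Slc11a2 (-0.66 ± 0.26).

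The 3 lipid lists, fatty acid synthesis, cholesterol and phospholipids, were the metabolic ones with a median below 0, at -0.34, -0.17 and -0.18, and remained below 0 under each scaling. Fatty acid synthesis counted 7 higher and 10 lower of 23, cholesterol 6 and 8 of 27, phospholipids 5 and 12 of 32. Genes of cholesterol synthesis share the activator Srebf2, whose own RNA did not pass the test at 34.0 RPKM in the dox-labelled column, against 38.2 RPKM in the no-dox column. The genes of the list moved in both directions. Fdps, which makes farnesyl pyrophosphate (31.3 RPKM in the dox-labelled column, against 8.30 RPKM in the no-dox column), Acat2, the first step (12.9 RPKM in the dox-labelled column, against 3.51 RPKM in the no-dox column), and Mvd, the decarboxylase of the mevalonate branch (12.6 RPKM in the dox-labelled column, against 4.08 RPKM in the no-dox column), rose. Cyp51, lanosterol demethylase (5.98 RPKM in the dox-labelled column, against 9.70 RPKM in the no-dox column), and Insig1, the sterol sensor's anchor (6.08 RPKM in the dox-labelled column, against 9.65 RPKM in the no-dox column), fell.

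The stretch of 200 bases before the start of 2 cholesterol genes that rose (Acat2, Mvd) and 2 that fell (Cyp51, Msmo1) is shown because all belong to 1 sterol-regulated pathway. Msmo1, an ER membrane demethylase of sterols, was chosen after its values were seen (log2 -0.60 ± 0.13). Sequences are from RefSeq for GRCm38.p6, on the strand of the gene, and the first listed start of a gene was used. Capitals mark CCAAT and GGGCGG on either strand, also searched were TATAA and the sterol element core TCACCCCAC.
Acat2 (chr17:12960726-12960925, minus strand): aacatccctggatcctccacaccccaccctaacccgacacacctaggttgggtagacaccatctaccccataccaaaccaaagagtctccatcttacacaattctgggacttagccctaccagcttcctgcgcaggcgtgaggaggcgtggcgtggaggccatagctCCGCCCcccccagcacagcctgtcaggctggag
Mvd (chr8:122443423-122443622, minus strand): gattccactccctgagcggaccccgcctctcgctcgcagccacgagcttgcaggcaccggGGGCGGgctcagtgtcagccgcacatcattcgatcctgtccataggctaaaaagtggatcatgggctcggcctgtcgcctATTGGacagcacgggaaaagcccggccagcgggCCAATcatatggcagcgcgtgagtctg
Cyp51 (chr5:4104698-4104897, minus strand): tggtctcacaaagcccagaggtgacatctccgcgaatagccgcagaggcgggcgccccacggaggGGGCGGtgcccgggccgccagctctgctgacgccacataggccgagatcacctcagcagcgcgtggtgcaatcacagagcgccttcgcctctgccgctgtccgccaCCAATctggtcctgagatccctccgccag
Msmo1 (chr8:64733579-64733778, minus strand): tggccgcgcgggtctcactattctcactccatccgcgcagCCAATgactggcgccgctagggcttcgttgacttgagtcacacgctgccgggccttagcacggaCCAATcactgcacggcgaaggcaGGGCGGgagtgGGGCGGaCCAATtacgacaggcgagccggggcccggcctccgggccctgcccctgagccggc
CCAAT was found 0 times before Acat2, 2 times before Mvd, 1 time before Cyp51 and 3 times before Msmo1, and GGGCGG 1, 1, 1 and 2 times in that order. TATAA and the sterol core were in none of the 4 as exact matches. Inexact matches were not searched, so the presence of a variant sterol element is not known. Of 27025 RefSeq promoters of the same length, 30.0% held CCAAT, 31.3% GGGCGG, 19.3% TATAA and 0.374% the sterol core. Among the 19 such promoters found for the cholesterol list the shares were 78.9%, 84.2%, 10.5% and 5.26% in that order. The 2 genes that fell and Mvd, which rose, thus held both CCAAT and GGGCGG.

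Pathways were also split by the place of the protein. This split was drawn up after the values were seen and is a description. Of the 7 sterol enzymes of cytosol and peroxisome 5 were higher and 0 lower (median log2 1.13), and of the 13 of the ER membrane 1 was higher, Fdft1, and 5 lower (median -0.29). The 5 cytosolic genes of fatty acid synthesis, Acly, Acaca, Fasn, Acss2 and Me1, were all higher (0.54 to 1.24), and of the 11 of the ER membrane 0 were higher and 8 lower. Fasn, the synthase that makes palmitate, stood at 47.4 RPKM in the dox-labelled column, against 21.6 RPKM in the no-dox column. Elovl6, the ER elongase that extends palmitate, stood at 4.30 RPKM in the dox-labelled column, against 13.9 RPKM in the no-dox column. These cytosolic genes have the longer exons, with a median of 10163 bases against 3522 bases for the ER set. Among chaperones, 32 of 35 cytosolic genes were higher and 0 lower, and 0 of 10 ER genes were higher and 7 lower. Hsp90ab1, a cytosolic HSP90, stood at 743 RPKM in the dox-labelled column, against 263 RPKM in the no-dox column (log2 1.5 ± 0.12, but -0.05 by quantiles). Hsp90aa1, the other cytosolic HSP90, did not pass the test (log2 -0.054). Hsp90b1, their relative in the ER, stood at 39.3 RPKM in the dox-labelled column, against 115 RPKM in the no-dox column. Exon lengths of these chaperone sets were alike, with medians of 3088 and 3270.5 bases. The ER sterol enzymes had the longer exons, with a median of 4866 bases against 2675 bases for the cytosolic and peroxisomal ones. In glucose use the plasma membrane carriers had the longer exons, with 4872 bases against 3736.5 bases for the glycolytic enzymes. Median GC content was not computed for these sets. The ER gene Dnajb11 was the 1 member of the cytosolic chaperone list that fell (-0.41 ± 0.15). The medians of these cytosolic sets stayed above 0 and those of the ER sets below 0 under each scaling and with length and GC trends removed.

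**Figure D4:**
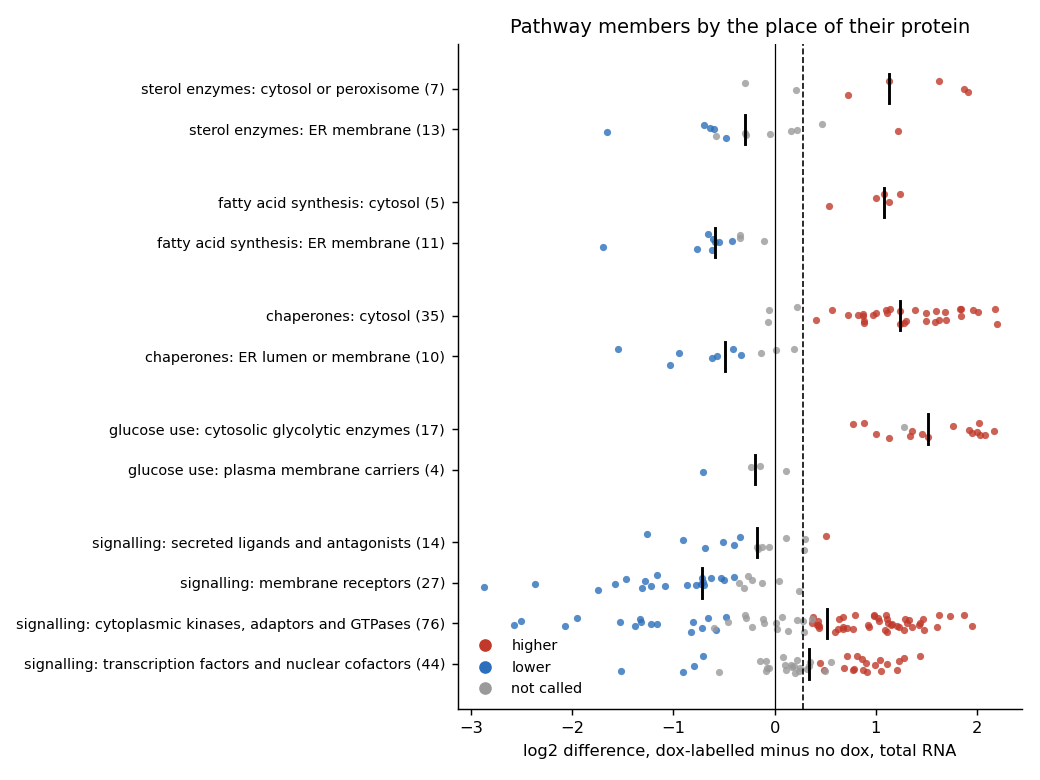
Log2 difference, dox-labelled minus no dox, of single genes (points, horizontal axis) in pathways split by the place of the protein, with the number of genes in brackets. Red is called higher, blue lower, grey not called, black bars are set medians and the dashed line is the median of all members. In each of the first 4 pathways the median of the cytosolic set lies to the right of that of the membrane or ER set, and the median of membrane receptors lies left of those of kinases and transcription factors, with overlap of single genes.

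In signalling, receptors fell and many cytoplasmic members rose. Of 27 membrane receptors of the signalling lists 0 were higher and 20 lower (median log2 -0.72), and of 14 secreted ligands and antagonists 1 was higher and 6 lower. Of 76 kinases, adaptors and GTPases 45 were higher and 16 lower (median 0.52), and of 44 transcription factors and nuclear cofactors 19 were higher and 4 lower (median 0.35). Median exon lengths were 6915 bases for the receptors and 6338 bases for the kinases, adaptors and GTPases. The LIF pathway held genes of both kinds. Lifr, the LIF receptor, fell to 5.55 RPKM in the dox-labelled column, against 15.3 RPKM in the no-dox column, and Il6st, its partner chain, to 12.6 RPKM in the dox-labelled column, against 23.0 RPKM in the no-dox column. Stat3, the transcription factor they activate, rose to 8.51 RPKM in the dox-labelled column, against 4.14 RPKM in the no-dox column, and its target and inhibitor Socs3 to 16.5 RPKM in the dox-labelled column, against 9.11 RPKM in the no-dox column. Adjusted p by limma was 1.5e-06, 0.001, 0.0001 and 8.2e-05 for these 4 genes in turn. In that list 12 of 22 members were higher and 6 lower, with Pias4 (1.68 ± 0.13) and Bcl3 (1.27 ± 0.15) among those that rose.

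The bone morphogenetic protein receptors carried some of the largest falls. Bmpr2, the type II receptor (chr1:59763400-59879014, plus strand), stood at 0.428 RPKM in the dox-labelled column, against 3.15 RPKM in the no-dox column, a log2 difference of -2.88 ± 0.26 (limma, adjusted p = 8.6e-07). It passed 1 RPKM in the no-dox column alone. Bmpr1a, the type I receptor, fell by 1.31 ± 0.24 and Tgfbr1, a receptor of transforming growth factor beta, by 1.74 ± 0.21 on the log2 scale. Downstream, the signal carriers Smad4 (7.16 RPKM in the dox-labelled column, against 3.8 RPKM in the no-dox column) and Smad1 (2.38 RPKM in the dox-labelled column, against 1.15 RPKM in the no-dox column) and the target genes Id1 (0.90 ± 0.14) and Id3 (0.99 ± 0.19) rose. Among the ligands, Nodal fell (-0.41 ± 0.12), Lefty1, its antagonist, did not pass at 147 RPKM in the dox-labelled column, against 136 RPKM in the no-dox column, and Bmp4 was under 1 RPKM in both columns and not a member. The whole list counted 7 higher and 10 lower of 31 (median log2 -0.15).

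Wnt genes were counted by place in the pathway. Of 15 receptors and ligands 1 was higher, Wnt7b (0.51 ± 0.19), and 7 lower, led by the co-receptor Lrp6 (7.15 RPKM in the dox-labelled column, against 21.4 RPKM in the no-dox column) and Lgr4, the R-spondin receptor (-1.28 ± 0.14). Of 21 cytoplasmic and nuclear effectors 11 were higher and 4 lower. Gsk3a, a kinase that marks beta-catenin for destruction (7.10 RPKM in the dox-labelled column, against 2.55 RPKM in the no-dox column), Axin1 (1.11 ± 0.18) and Dvl2 (1.02 ± 0.17) rose. Gsk3b, the relative of Gsk3a, fell (log2 -0.479). Ctnnb1, beta-catenin itself, rose by a smaller step (64.9 RPKM in the dox-labelled column, against 47.5 RPKM in the no-dox column), although quantile normalization turned it to -0.48. Apc, the scaffold of the destruction complex, fell (2.43 RPKM in the dox-labelled column, against 9.50 RPKM in the no-dox column), with the tankyrases Tnks (-0.86 ± 0.13) and Tnks2 (-0.52 ± 0.12), and its exons are 16116 bases long. In the FGF and ERK list 16 of 32 were higher and 8 lower. Map2k2 (1.29 ± 0.17), Mapk3 (1.42 ± 0.19) and Hras (1.35 ± 0.17) of the kinase cascade rose, with Dusp6, the phosphatase that ERK induces (1.17 ± 0.15). Fgf4, the ligand (47.6 RPKM in the dox-labelled column, against 60.5 RPKM in the no-dox column), Fgfr1, its receptor (9.40 RPKM in the dox-labelled column, against 12.4 RPKM in the no-dox column), and the Ras brakes Rasa1 (-1.35 ± 0.19), Nf1 (-0.93 ± 0.21) and Spred1 (-0.86 ± 0.13) fell.

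Growth and cytoskeletal signalling moved in both directions. The phosphoinositide 3-kinase, AKT and mTOR list counted 24 of 46 higher and 9 lower. Akt2 (1.44 ± 0.16), Akt1 (1.33 ± 0.19) and Mtor (0.93 ± 0.16) rose, and the receptor Igf1r (-1.23 ± 0.19) and the catalytic subunit Pik3ca (-1.38 ± 0.25) fell. Of 36 genes of cytoskeletal GTPases and their effectors 18 were higher and 10 lower. Rhoa, the GTPase, rose to 73.9 RPKM in the dox-labelled column, against 19.2 RPKM in the no-dox column, and Rock1, the kinase it activates, fell to 1.00 RPKM in the dox-labelled column, against 3.89 RPKM in the no-dox column. Arhgap5, a GTPase-activating protein, fell by 2.27 ± 0.16. Among 26 G protein and cyclic AMP genes 15 were higher and 4 lower, with the protein kinase A subunits Prkaca (1.73 ± 0.14) and Prkar1a (1.6 ± 0.13) and the inhibitory G protein Gnai2 (1.48 ± 0.13) at the top. The Hippo list was split, with 6 of 23 higher and 7 lower, and its median of 0.17 turned negative with column medians set equal (-0.09) and by quantiles (-0.28). Tead2 (1.44 ± 0.14) and Yap1 (0.72 ± 0.13) rose while Tead1 (-0.90 ± 0.16), Lats1 (-0.72 ± 0.23) and the giant cadherin Fat1 (-1.25 ± 0.13) fell. In the Notch and Hedgehog list 4 of 27 were higher and 11 lower. Notch1 (-0.71 ± 0.13), Notch2 (-1.16 ± 0.14), the sheddase Adam10 (-1.67 ± 0.24) and Ptch1, the Hedgehog receptor (-0.72 ± 0.16), fell, and Hes1, a target of Notch, rose (0.86 ± 0.14).

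**Figure D5:**
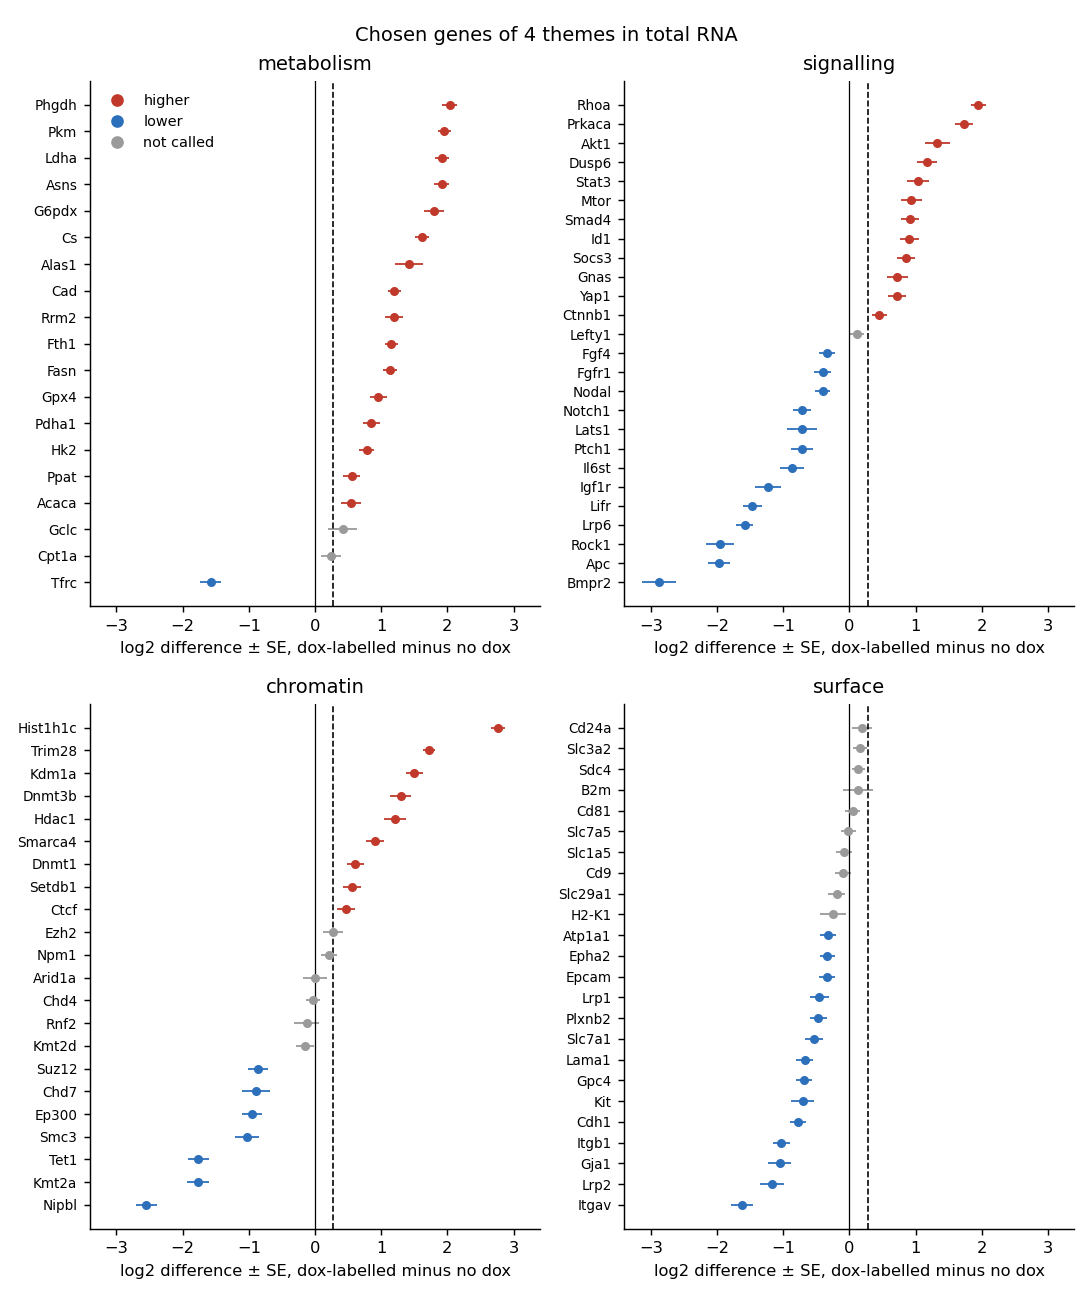
Log2 difference, dox-labelled minus no dox, of chosen genes in 4 themes (points), with the SE from limma (bars). Red is called higher, blue lower, grey not called, and the dashed line is the median of all members. The metabolic genes lie mostly right of 0, 0 of the 24 surface genes is called higher, and signalling and chromatin genes spread to both sides.

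Genes of surface proteins were mostly lower or did not pass the test. Integrins and laminins counted 0 of 25 higher and 22 lower (median log2 -0.74). Itgav, the alpha V integrin that binds vitronectin, stood at 7.09 RPKM in the dox-labelled column, against 21.8 RPKM in the no-dox column, and Itgb1, the beta 1 chain that most ESC integrins use, at 18.2 RPKM in the dox-labelled column, against 37.2 RPKM in the no-dox column (limma, adjusted p = 2.8e-06 and 1.6e-05). Fibronectin, Fn1, the matrix ligand of these receptors, fell by 1.26 ± 0.14, and the basement membrane genes Nid1 and Lama1 by 1.27 ± 0.16 and 0.68 ± 0.12. Of 33 cadherin and junction genes 8 were higher and 15 lower. Cdh1, E-cadherin, fell to 55.8 RPKM in the dox-labelled column, against 95.5 RPKM in the no-dox column, and Gja1, a gap junction protein, to 6.32 RPKM in the dox-labelled column, against 13.1 RPKM in the no-dox column. Among those that rose were Jup (1.11 ± 0.14), Pkp3 (0.98 ± 0.18) and Tjp3 (1.02 ± 0.22), which are cytoplasmic plaque proteins and not membrane proteins.

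Transporters followed. Of 41 genes of ion and nucleoside transport 0 were higher and 28 lower (median log2 -0.61). Trpm7, a magnesium channel fused to a kinase, fell to 2.38 RPKM in the dox-labelled column, against 11.2 RPKM in the no-dox column, Atp2b1, a calcium pump, to 1.64 RPKM in the dox-labelled column, against 7.29 RPKM in the no-dox column, and Slc12a2, a chloride cotransporter, by 1.84 ± 0.24. Of 21 amino acid and glucose carriers 1 was higher, the creatine carrier Slc6a8 (60.8 RPKM in the dox-labelled column, against 39.5 RPKM in the no-dox column, but -0.28 by quantiles), and 8 lower, led by Slc38a4 (-1.19 ± 0.22) and Slc38a2 (-1.09 ± 0.12), carriers of small neutral amino acids. Slc7a5, the leucine carrier, and its partner chain Slc3a2 did not pass the test at 22.2 RPKM in the dox-labelled column, against 22.4 RPKM in the no-dox column and 24.4 RPKM in the dox-labelled column, against 21.8 RPKM in the no-dox column.

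Abundant surface antigens of ESC had small differences. Cd9 (83.7 RPKM in the dox-labelled column, against 89.4 RPKM in the no-dox column) and Cd81 (94.3 RPKM in the dox-labelled column, against 90.9 RPKM in the no-dox column), both tetraspanins, had log2 differences of -0.10 ± 0.12 and 0.05 ± 0.11 (limma, adjusted p = 0.49 and 0.7), and Epcam fell by 0.34 ± 0.12. Relative to the members' median of 0.28 the 2 tetraspanins lay below the middle. In the tetraspanin and immunoglobulin family list 2 of 32 were higher, Cd320 (0.67 ± 0.17) and Cd63 (0.48 ± 0.14, but -0.30 by quantiles), and 11 lower, with Cd55 at -1.82 ± 0.24 and Nt5e at -1.34 ± 0.28. Of 17 receptor tyrosine kinases and ephrins 0 were higher and 6 lower, among them Epha4 (-1.45 ± 0.17) and Kit (-0.71 ± 0.17). Of 9 genes of endocytic receptors 0 were higher and 4 lower, with Lrp2 at -1.17 ± 0.18. Proteoglycans counted 0 of 20 higher and 11 lower, including Gpc4 (-0.69 ± 0.12) and the heparan sulfate epimerase Glce (-1.42 ± 0.22). Plexins and semaphorins counted 1 of 14 higher, Nrp2 (0.56 ± 0.15), and 5 lower. In antigen presentation 1 of 14 was higher, the proteasome subunit Psmb10 (1.66 ± 0.18), and 4 lower, with the ER genes Canx (-1.03 ± 0.11) and Pdia3 (-0.95 ± 0.11), and B2m and H2-K1 did not pass (0.13 ± 0.23 and -0.25 ± 0.20).

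The surface counts were read against genes of like level and, separately, against genes on the same side of the median coding length. At 20 RPKM or more, 7.69% of 52 surface members were higher and 55.8% lower, against 77.6% and 10.6% of all 1351 members at that level. Between 5 and 20 RPKM the shares were 3.37% and 51.7% of 89 surface members, against 57.0% and 20.1% of all members, and between 1 and 5 RPKM 7.06% and 45.9% of 85 surface members, against 24% and 27.6% of all members. Among genes with a coding sequence under 1383 bases, 9.23% of 65 surface members were higher and 27.7% lower, against 52.9% and 12.8% of all members with one. Among the longer ones the shares were 4.35% and 59.6% of 161 surface members, against 34.4% and 30.9% of all members with one. With the length and GC trends removed the surface theme counted 4 higher and 183 lower of 226.

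Chromatin genes ranged widely and the histones stood apart. All 62 replication-dependent histone members were higher (median log2 2.51, from 1.49 to 2.51 over the scalings). Hist1h1c, a linker histone, stood at 1221 RPKM in the dox-labelled column, against 179.9 RPKM in the no-dox column. Histone mRNAs lack a poly(A) tail and come from near-identical genes, so reads of single copies may have been divided. Of 25 histone chaperones 17 were higher and 3 lower, with Chaf1b of the replication-coupled loader (1.66 ± 0.23) and Npm3 (1.88 ± 0.18) up and Ubn2 of the HIRA complex (-2.17 ± 0.18) down. Without the histones, chromatin members with a coding sequence under 1383 bases counted 54 higher and 5 lower of 82, and those with longer ones 76 and 73 of 207.

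In the Polycomb list 16 of 34 were higher and 7 lower (47.1% and 20.6%), near the 42.7% and 22.7% of all members. Rbbp4, a histone-binding subunit, rose to 28.4 RPKM in the dox-labelled column, against 7.96 RPKM in the no-dox column, and Epop, a partner of PRC2 in ESC, to 107 RPKM in the dox-labelled column, against 41.4 RPKM in the no-dox column. Suz12, a core subunit of PRC2, fell to 7.65 RPKM in the dox-labelled column, against 13.9 RPKM in the no-dox column, with Mtf2 (-0.99 ± 0.16) and Asxl2 (-1.75 ± 0.20), and the methyltransferase Ezh2 did not pass at 8.39 RPKM in the dox-labelled column, against 6.95 RPKM in the no-dox column. In the list of COMPASS and other methyltransferases 13 of 31 were higher and 10 lower (41.9% and 32.3%). The arginine methyltransferases Prmt1 (78.7 RPKM in the dox-labelled column, against 21.5 RPKM in the no-dox column) and Prmt5 (1.73 ± 0.14) and the CpG-binding subunit Cxxc1 (1.41 ± 0.14) rose, and Kmt2a (2.88 RPKM in the dox-labelled column, against 9.85 RPKM in the no-dox column), Setd2 (-2.04 ± 0.23) and Ash1l (-1.89 ± 0.23), which methylate histone H3, fell. Kmt2d did not pass (-0.16 ± 0.13). The medians of these lists, 0.23 and 0.18, turned to -0.04 and -0.08 with column medians set equal, and the second to -0.02 by quantiles.

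The heterochromatin list counted 13 of 30 higher and 11 lower, and its median of 0.22 turned to -0.04 with column medians set equal and to -0.22 by quantiles. Trim28, the corepressor that zinc-finger proteins recruit to transposons, rose to 335 RPKM in the dox-labelled column, against 102 RPKM in the no-dox column, with Ehmt2, an H3K9 methyltransferase (49.5 RPKM in the dox-labelled column, against 16.6 RPKM in the no-dox column). Atrx, a remodeller of repeats and telomeres, fell to 2.41 RPKM in the dox-labelled column, against 11.9 RPKM in the no-dox column, with Rif1, which times replication (9.04 RPKM in the dox-labelled column, against 34.8 RPKM in the no-dox column), and Fam208a of the HUSH complex (-1.35 ± 0.16). Setdb1, the methyltransferase that Trim28 recruits, rose by a smaller step (0.56 ± 0.13, but -0.17 by quantiles). The DNA methylation list counted 6 of 13 higher and 3 lower (46.2% and 23.1%), near the share of all members. Dnmt3l (36.3 RPKM in the dox-labelled column, against 13.3 RPKM in the no-dox column), the cofactor of de novo methylation, Dnmt3b (1.30 ± 0.16), Uhrf1 (1.25 ± 0.14) and Dnmt1 (0.60 ± 0.13, but -0.12 by quantiles) rose. The demethylating dioxygenases Tet1 (9.36 RPKM in the dox-labelled column, against 31.7 RPKM in the no-dox column) and Tet2 (2.55 RPKM in the dox-labelled column, against 8.10 RPKM in the no-dox column) fell. Adjusted p by limma was 2.1e-07 for Dnmt3l and 8.7e-07 for Tet1. The median of that list, 0.16, turned negative with column medians set equal (-0.10) and by quantiles (-0.12).

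Demethylases, acetylation and remodelling genes gave mixed counts. Lysine demethylases counted 9 of 19 higher and 4 lower (5 and 8 by quantiles), with Kdm1a, the H3K4 demethylase (1.5 ± 0.12), up and Jmjd1c (-1.71 ± 0.19) down. Acetyltransferases and bromodomain proteins counted 13 of 38 higher and 7 lower, with Kat2a (1.37 ± 0.16) up and Ep300 (3.78 RPKM in the dox-labelled column, against 7.35 RPKM in the no-dox column) down. The counts of that list were 7 higher and 11 lower with column medians set equal and 6 and 12 by quantiles, and its median of 0.17 turned to -0.09 and -0.10. Deacetylase complexes counted 17 of 32 higher and 4 lower, with Hdac1 (24.9 RPKM in the dox-labelled column, against 10.8 RPKM in the no-dox column) and Mta2 (1.38 ± 0.14) up and Ncor1, a corepressor (4.82 RPKM in the dox-labelled column, against 11.6 RPKM in the no-dox column), down. Remodellers counted 20 of 40 higher and 11 lower (median 0.38, or -0.01 by quantiles). The helicase pair Ruvbl1 (1.79 ± 0.12) and Ruvbl2 (1.84 ± 0.13) and the BAF ATPase Smarca4 (0.90 ± 0.14) rose, and Pbrm1 (-2.10 ± 0.17), Chd2 (-2.0 ± 0.18) and Chd9 (-1.85 ± 0.15) fell. Chd4 and Arid1a did not pass, at 48.9 RPKM in the dox-labelled column, against 49.9 RPKM in the no-dox column and 10.1 RPKM in the dox-labelled column, against 10.1 RPKM in the no-dox column.

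Cohesin and condensin was the chromatin list with a median below 0, with 6 of 27 higher and 18 lower (median log2 -0.96, but 0.09 once length and GC trends were removed). Nipbl, which loads cohesin, stood at 1.88 RPKM in the dox-labelled column, against 11 RPKM in the no-dox column (limma, adjusted p = 3.5e-08). The ring subunit Smc3 (6.67 RPKM in the dox-labelled column, against 13.6 RPKM in the no-dox column), Stag2 (-1.54 ± 0.19) and Smc6 (-1.56 ± 0.19) fell as well. The condensin subunits Ncapd2 (45.4 RPKM in the dox-labelled column, against 17.8 RPKM in the no-dox column) and Ncaph2 (1.06 ± 0.11) and the cohesin protector Cdca5 (1.56 ± 0.14) rose, and Ctcf, the insulator protein, by a smaller step (0.47 ± 0.13, but -0.13 by quantiles).

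Within the general machinery, cytoplasmic ribosomal protein genes counted 76 of 82 higher and 1 lower, Rpl30 (median log2 1.26, but 0.01 by quantiles), with Rpsa at 530.5 RPKM in the dox-labelled column, against 99.0 RPKM in the no-dox column. Of 40 proteasome genes 36 were higher and 0 lower by limma, led by Psmd13 (2.36 ± 0.11). Actin and tubulin genes counted 44 of 48 higher and 0 lower, with Actb at 1535 RPKM in the dox-labelled column, against 317 RPKM in the no-dox column and Pfn1, profilin, at 313 RPKM in the dox-labelled column, against 70.1 RPKM in the no-dox column. The motor and giant cytoskeletal list, whose members were partly chosen for their size, counted 13 of 41 higher and 17 lower, and its median of -0.30 turned to 0.22 with the length trend removed. The linkers Dst (-2.43 ± 0.14) and Macf1 (-2.42 ± 0.13) fell most in it. Of 45 translation factors 32 were higher and 4 lower, with Eef1d (2.50 ± 0.11) up and Eif4a2 (-1.10 ± 0.10) down. Large ubiquitin ligases and deubiquitinases, also partly chosen for size, counted 13 of 44 higher and 17 lower (median -0.26, but 0.32 with the length trend removed), with Usp5 (1.76 ± 0.10) up and Ube3a (-1.94 ± 0.19) down.

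Cell cycle genes counted 42 of 58 higher and 7 lower. Aurka (1.71 ± 0.14), Gins2 (1.70 ± 0.17) and Ccnd1 (1.62 ± 0.13) rose, and the large mitotic proteins Cenpf (-1.95 ± 0.16) and Cenpe (-1.85 ± 0.28) fell. DNA repair counted 23 of 49 higher and 13 lower, with Trp53 (102 RPKM in the dox-labelled column, against 31.0 RPKM in the no-dox column) and Apex1 (1.80 ± 0.11) up and Brca2 (-2.05 ± 0.22) and Atm (-1.47 ± 0.26) down. Splicing factors counted 39 of 62 higher and 12 lower (19 and 24 by quantiles), with Snrpb (1.63 ± 0.15) up and Luc7l3 (-1.83 ± 0.13) and Clk1 (-1.94 ± 0.16) down. The list of ER, Golgi and vesicle coat genes counted 30 of 58 higher and 12 lower. The cytosolic coat and traffic GTPases Arf5 (2.06 ± 0.14) and Rab1b (1.89 ± 0.12) rose, and Sec63 of the translocon (-1.93 ± 0.21) and the Golgi tether Golgb1 (-1.57 ± 0.18) fell. Pluripotency factors counted 22 of 32 higher and 4 lower (9 and 14 by quantiles, where the median log2 of 0.55 turned to -0.18). Pou5f1, the core factor OCT4, stood at 375 RPKM in the dox-labelled column, against 94.1 RPKM in the no-dox column, Nanog at 92.9 RPKM in the dox-labelled column, against 57.0 RPKM in the no-dox column and Sox2 at 54.2 RPKM in the dox-labelled column, against 39.6 RPKM in the no-dox column, with the rises of Nanog and Sox2 turned to -0.32 and -0.43 by quantiles, and Klf4 did not pass (0.27 ± 0.20). The small RNA silencing list, to which Ago2 belongs, counted 9 of 27 higher and 10 lower (median -0.06, but 0.40 with the length trend removed). Tarbp2 (1.06 ± 0.14) rose, Tnrc6b, a partner of Argonaute, fell (-1.33 ± 0.17), and Dicer1 did not pass at 3.70 RPKM in the dox-labelled column, against 3.87 RPKM in the no-dox column.

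Nuclear RNA of the same cells was tested in the same fit. There 4340 members (44.0%) were higher and 2569 (26.1%) lower in the dox-labelled column. The nuclear medians were 1.08 for metabolism and -0.25 for the surface theme, against 0.96 and -0.41 in total RNA. ER membrane sterol enzymes had a nuclear median of 0.13, against -0.29 in total RNA, and receptors of the signalling lists -0.78, against -0.72. The difference of the effects between nuclear and total RNA passed an adjusted p of 0.05 in limma for 0 members (0.00%), with 1308 at an unadjusted p below 0.05, 2 past an adjusted p of 0.05 without limma's moderation, and a smallest adjusted p of 0.0691. The median SE of that difference was 0.26 on the log2 scale, so differences of a size like those of the medians were not detectable for a single gene.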

How the data were processed

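Total and nuclear RNA of mouse ESC were sequenced with and without dox. The mm10 build and the tools TopHat and bcl2fastq (2.17.1) are listed, without their roles, in the submitters' processing notes. Partek 6.6 gave the RPKM and the ANOVA, per the file headers. The counting of reads and its annotation are not given in the sources used here. The table the authors deposited holds log2(RPKM + 0.001) as means of groups, with an ANOVA p-value and q-value, a ratio and a signed fold change (a score) per comparison. Levels are therefore geometric means.

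The tests planned for values of single libraries were replaced, since the table holds means. With 6 residual degrees of freedom both deposited p-values of a gene gave the same residual standard deviation within 0.001 for 100% of 17101 genes, which fits 10 libraries, namely 2 dox-labelled and 3 no-dox libraries of total RNA, and 3 and 2 of nuclear RNA. Depth was inferred from the steps of low values with exon lengths of GENCODE vM21, keeping as many steps as libraries. The steps of the dox-labelled column held 11 and 14 of 133 genes. limma 3.58.1 in R 4.3.3 moderated these variances along a trend on mean level and tested dox-labelled minus no dox over 10200 genes of at least 1 RPKM in at least 1 of 4 columns, with Benjamini-Hochberg adjustment. In simulated total RNA of 10200 genes with 200 changed, 70.0% of log2 changes of 1 and 92.0% of changes of 2 were called, and 6.90% of the calls were unchanged genes. In the data far more of the 10200 genes were called, 4233 higher and 2324 lower. The simulation also held no length, GC or scaling shift, so its shares do not measure the error of the calls given here.

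Exon length, coding length and GC content came from GENCODE vM21. Members, 59 gene lists and tests were chosen with earlier results of these data known. Named genes were set by rule: chosen key genes, up to 3 extremes per list and direction, up to 2 uncalled genes of highest level per list, the 10 largest changes each way, and cell markers. The 10 largest changes came from called genes of at least 5 RPKM in the higher and at least 1 RPKM in the lower total column. Symbols starting with Gm and a digit or ending in Rik were left out of these. A few genes that this rule names are not reported here. Alternatives tried were other filters, no moderation, median centring, quantile normalization, and removal of length and GC trends.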

Additional observations from a re-analysis of the deposited data

How the results depend on the processing

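The calls were 4203 higher and 2237 lower. They were 3089 and 873 among genes of at least 5 RPKM, 3961 and 2051 with no filter on low values, 3941 and 2066 without moderation, 3272 and 3052 with column medians set equal, 3420 and 2829 after quantile normalization, 3131 and 2765 with the length trend removed and 3171 and 2420 with length and GC trends removed. Counting at least 2-fold alone gave 2267 and 1224. An alternative chosen after seeing the data, 1 RPKM in both total columns, gave 3980 and 1531. Of the genes called higher, 76 were called lower after quantile normalization, 15 with the length trend removed and 23 with both trends removed. Of those called lower, 0, 15 and 47 were called higher.

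Of the named genes, these turned sign. Quantile normalization gave Cd63 -0.30, Ctcf -0.13, Ctnnb1 -0.48, Dnmt1 -0.12, Hsp90ab1 -0.048, Nanog -0.32, Setdb1 -0.17, Slc6a8 -0.28 and Sox2 -0.43. Removal of the length trend gave Sox2 -0.22. Removal of both trends gave Cd63 -0.15, Fam208a 0.043, Mtf2 0.006, Sox2 -0.21, Tnks2 0.066, Uqcrb 0.025 and Wnt7b -0.018. The cause was not tested.

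No paired analysis was possible because the table holds group means and no column of a single library. For the same reason leaving out each replicate, the replicate block and other pseudocounts were not run, and which 2 of the 12 listed libraries are not in the means is not known. The effect of a single deviant library among the 2 dox-labelled and 3 no-dox ones was not tested. RPKM are relative, so a change of total RNA per cell was not measured.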

Other observations

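Small noncoding RNAs were listed among the members. Of all members 42.7% were higher and 22.7% lower. Of 36 miRNA loci 6 were higher and 8 lower (16.7% and 22.2%), although their median log2 difference was -2.94. That median cannot be read as a fold loss of these short RNAs. A library without reads at a locus enters the mean as the log2 of the small added constant alone. A single such library can therefore pull a low mean far down. The dox-labelled mean held fewer and shallower libraries, and the part of such libraries in the median was not tested. Of 57 snoRNA loci 5 were higher and 13 lower (8.77% and 22.8%, median -0.11). Transcribed processed pseudogenes (24) counted 15 higher and 2 lower, with a median log2 difference of 1.19.

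Markers of other fates that reached 1 RPKM were few. Tubb3, a tubulin of neurons, stood at 20.2 RPKM in the dox-labelled column, against 5.01 RPKM in the no-dox column, and Nes, a filament of neural progenitors, at 2.13 RPKM in the dox-labelled column, against 1.98 RPKM in the no-dox column. Tfap2c, a factor of trophectoderm that germ cells and ESC also express, stood at 3.98 RPKM in the dox-labelled column, against 1.78 RPKM in the no-dox column. Zscan4f, of the 2-cell-like state, stood at 1.79 RPKM in the dox-labelled column, against 3.10 RPKM in the no-dox column, and did not pass the test.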
